A study of Homo sapiens with 8 samples.

Results

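The genes described are 36 members of the glycolytic pathway and of the cellular response to low oxygen. They were read in HEK293 cells that, by the sample titles, overexpressed an intronic transcript of KLHL29 in either orientation, sense or antisense. A member was taken from every array feature that had a value in all 8 samples and whose annotation named that gene and no other, so that isoenzymes such as HK1 and HK2 were kept apart. By this rule 32 of the 36 members were measured, by 97 of 25094 features, and these 32 stand among 13469 genes with at least 1 such feature. The other 4 members could not be followed: SLC2A3 had 2 annotated features, neither with values in all 8 samples, and SLC16A1, SLC16A3 and CA9 were named by no listed feature. For statements about the list, each gene was represented by its brightest feature, the one with the highest mean log2 intensity over the 8 samples. All differences are sense minus antisense, so a negative value is lower in the sense samples.

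HEK293 is an established cell line of human fetal kidney origin, immortalised by adenovirus DNA. All 8 samples carried the linearised pBudCE4.1 expression vector and had been selected with zeocin, and they differed in the orientation of the insert, with 4 samples in each orientation. They were mixed pools of resistant cells regrown from frozen stocks of 1 transfection, so a p-value measures the spread between these samples and cannot separate an insert from the pool that carries it. No untransfected cells and no empty vector were analysed here. Samples 1 and 3 of each construct were labelled with Cy3 and samples 2 and 4 with Cy5, so that each dye holds 2 samples per construct. The series title concerns proliferation of tumorigenic lines, and the comparison addressed here is whether genes of glucose breakdown and of the oxygen response differ between the orientations.

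Glycolysis breaks glucose down to pyruvate in the cytosol and yields ATP without oxygen. Lactate dehydrogenase then turns pyruvate into lactate, while pyruvate dehydrogenase passes it to the mitochondria unless a pyruvate dehydrogenase kinase holds that enzyme back. When oxygen is short, prolyl hydroxylases of the EGLN family no longer mark HIF1A protein for destruction, and the hypoxia-inducible factor then binds a short core motif in the promoters of many glycolytic enzymes and of genes such as VEGFA. Proliferating cultured cells use glycolysis heavily even with oxygen present.

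The sequences through which these genes are known to be addressed can be seen in 3 promoters, chosen because HK2 had the lowest difference among the members and because PGK1 and LDHA read low in the same sample. The windows come from RefSeq, run from 250 bases before to 50 bases after the annotated start on GRCh38.p14, and are written 5′ to 3′ on the strand of the gene, with each core ACGTG or GCGTG, or its reverse complement, in capitals. The HK2 window lies at chr2:74833877-74834176 on the plus strand, the PGK1 window at chrX:78103998-78104297 on the plus strand and the LDHA window at chr11:18394313-18394612 on the plus strand.
HK2: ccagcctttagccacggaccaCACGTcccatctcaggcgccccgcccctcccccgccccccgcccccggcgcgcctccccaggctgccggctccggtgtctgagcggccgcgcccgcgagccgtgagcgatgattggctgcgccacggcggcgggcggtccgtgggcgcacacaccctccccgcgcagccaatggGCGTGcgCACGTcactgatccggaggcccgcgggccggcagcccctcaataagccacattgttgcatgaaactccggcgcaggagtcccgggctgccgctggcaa
PGK1: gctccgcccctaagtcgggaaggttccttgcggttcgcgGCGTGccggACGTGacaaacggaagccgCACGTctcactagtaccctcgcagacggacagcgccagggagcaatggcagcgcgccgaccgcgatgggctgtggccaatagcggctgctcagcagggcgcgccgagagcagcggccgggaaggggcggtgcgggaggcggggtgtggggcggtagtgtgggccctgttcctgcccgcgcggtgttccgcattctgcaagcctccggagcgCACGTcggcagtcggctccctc
LDHA: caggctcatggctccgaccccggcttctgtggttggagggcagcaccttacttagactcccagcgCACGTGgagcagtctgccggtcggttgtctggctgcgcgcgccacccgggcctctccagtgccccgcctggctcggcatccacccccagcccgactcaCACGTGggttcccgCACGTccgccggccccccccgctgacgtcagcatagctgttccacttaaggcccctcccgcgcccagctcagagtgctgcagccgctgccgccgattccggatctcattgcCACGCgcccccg

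HK2 holds 3 cores, whose first bases lie at -229, -55 and -48 from the start, counted so that the start is 1 and the base before it -1. PGK1 holds 4, at -211, -202, -183 and 29. LDHA holds 6, at -185, -184, -87, -86, -73 and 39, where the adjoining positions are the overlapping readings of CACGTG on both strands. Of the members, 31 had a promoter in the table and 23 of these (74.2%) held at least 1 core, against 17012 of all 35116 promoters (48.4%). The share of members counts 1 window per gene, whereas that of all promoters counts every window in the table. Among the groups described below the motif was in 10 of 15 glycolytic enzymes and 4 of 5 branch point enzymes. It was in 1 of 2 transporters, 2 of 3 oxygen sensing genes and 6 of 6 other hypoxia-induced genes. The last group includes CA9, which was not measured, while its members VEGFA, BNIP3L and NDRG1 had no promoter in the table. A match describes the sequence and is not a site of binding in these cells.

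Between pairs of samples, r across the 21451 features above their limits in both constructs was 0.960 to 0.996. Of the 97 member features, 96 lay above the inferred detection limits in both constructs, and the exception was the dimmer of 2 HK1 features. The members' mean log2 intensities ran from 27.57 to 36.47, and levels of different genes are not set against each other, since probes differ in brightness. Of 9 HEK293 markers with values, 8 were detected (NEFL, NEFM, INA, LHX1, EYA1, KRT8, KRT18 and VIM) and PAX2 was not. Their summed level was 92780 to 151600 intensity units of 1000000 in the sense and 94180 to 157300 in the antisense samples. Of the markers of other cells, PTPRC and HBB (blood), APOA1 and AFP (liver), PECAM1 and CDH5 (endothelium) and MYH7 (muscle) were below their limits. CD3E of 3 blood markers with values, COL1A1 of 3 fibroblast markers and ACTC1 of 2 muscle markers were detected. The summed muscle markers read 6055 to 12410 units in the sense and 6421 to 9955 in the antisense samples. The blood and fibroblast sums were at most 206 and 366.8 units. In mixed pools, fewer cells expressing a gene and less RNA per cell cannot be told apart.

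No member passed the threshold with all 8 samples, and the differences of the glycolytic and hypoxia-responsive genes were small in both directions. The limma fit (construct and dye, Benjamini-Hochberg over all features, adjusted p under 0.05) called 0 of 97 member features, against 17 of 25094 features in all (0.0677%). An unadjusted limma p under 0.05 was reached by 7 member features (7.22%), which belong to HK2, ENO2, PDK1, SLC2A1 and VEGFA. The same held for 14.2% of all features and for 14.1% of those detected in both constructs. Because VEGFA, PGK1, HIF1A, GAPDH and ADM have 10 to 13 features each, the share was also taken per gene: by brightest feature it was 4 of 32 members (12.5%) against 15% of all genes, which is near the background. By brightest feature, 11 members had a positive and 21 a negative difference, with a median of -0.11 and a range of -0.64 to 0.59 log2. Over all genes the median was -0.05, and over features detected in both constructs it was 0.00. The typical standard error of a member's difference was 0.17 log2 (median over the 32 genes).

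**Figure D1:**
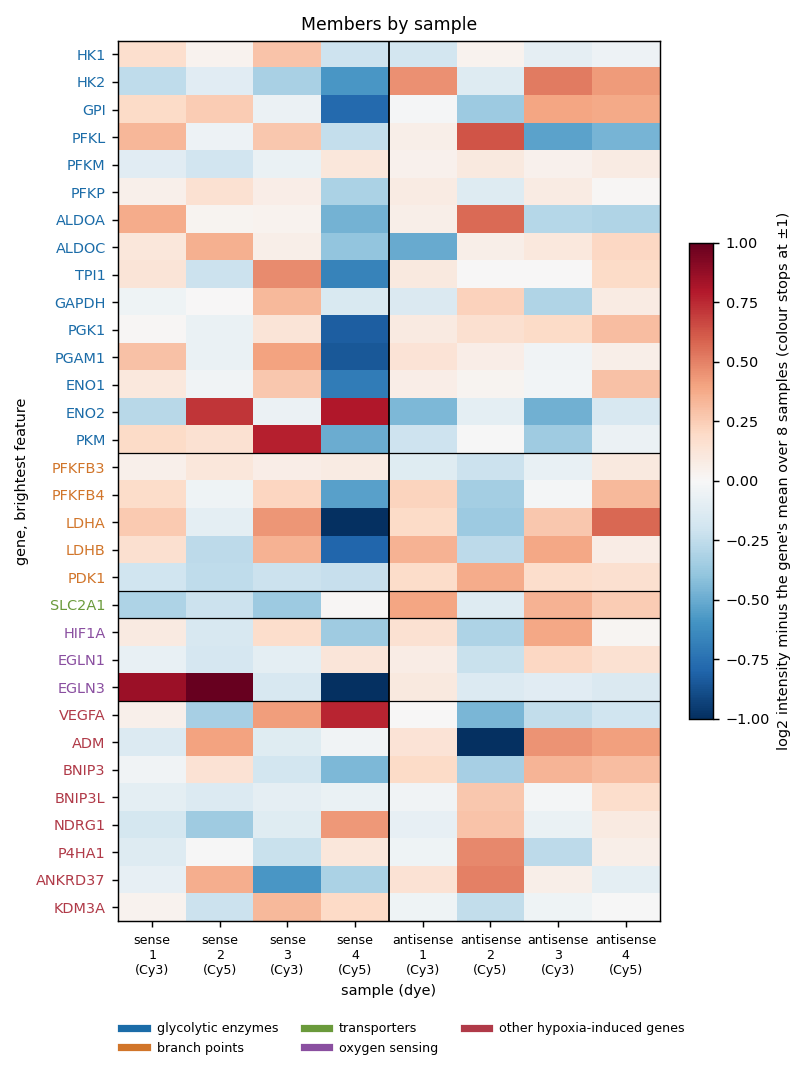
Log2 intensity of the brightest feature of each of the 32 measured members (vertical axis, coloured by group) in the 8 samples (horizontal axis, with dye), as the deviation from the gene's mean over all samples, with the colour stopping at 1 log2. Sense 4 is blue along most of the glycolytic enzymes, PDK1 is blue in all 4 sense and red in all 4 antisense samples, and ADM is blue in antisense 2.

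Complete separation of the constructs, with every sense sample on the same side of every antisense sample, was seen for 8 of the 97 member features (8.25%). The background over all features was 6.39%, so this share lies near it. In 4 features the sense samples were all higher, against 3.35% of all features, and all 4 were features of VEGFA. In the other 4 the sense samples were all lower, against 3.04% of all features, and these belonged to PGAM1, PDK1 (both of its features) and BNIP3L.

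The sign of the list's median differed between the dyes. Among the Cy3 samples, 2 per construct, the members' median difference was 0.04 and 16 of 32 were negative. Among the Cy5 samples it was -0.17 and 26 of 32 were negative. The Cy5 samples include sense 4, and without that sample the median over all members was 0.02, with 14 negative. Read within dyes by limma, the Cy3 samples gave 13 called member features, of HK1, HK2, PFKL, PKM, PDK1, SLC2A1, VEGFA and ADM, against a background of 11.5% of all features. The Cy5 samples gave 0, against 0.0159%. Both of these fits rest on 2 samples per construct.

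**Figure D2:**
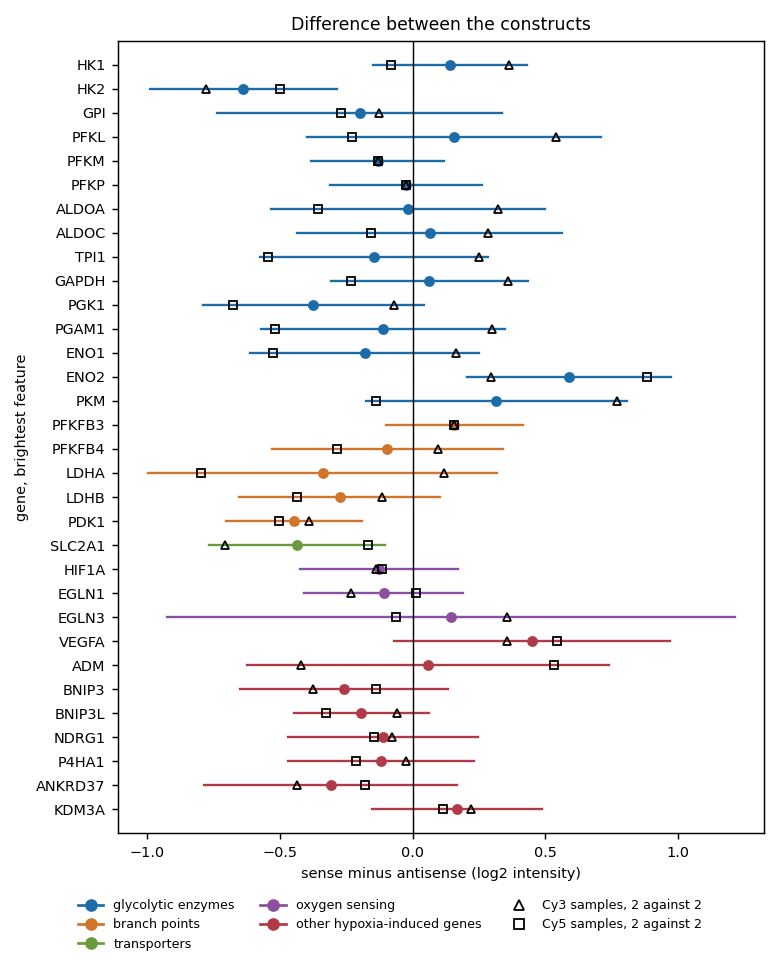
Sense minus antisense difference in log2 intensity (horizontal axis) of the brightest feature of each member (vertical axis), as the limma estimate with its 95% interval (filled circles and bars, n = 4 per construct) and within the Cy3 (triangles) and Cy5 (squares) samples alone. For most glycolytic enzymes the triangle lies to the right of the square. HK2, PDK1 and SLC2A1 have both symbols below 0, as do other members, among them GPI, PFKM, PGK1, LDHB and BNIP3.

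The 15 glycolytic enzymes, all measured, showed 6 positive and 9 negative differences with a median of -0.02 log2, and none was called. Hexokinases commit glucose to the pathway, and the differences of HK1 and HK2 had opposite signs. HK2, the form induced by hypoxia and by growth signals, stood at 32.34, 32.48, 32.27 and 32.01 log2 intensity in sense samples 1 to 4 and at 33.05, 32.47, 33.11 and 33.02 in antisense samples 1 to 4 (feature 20306). Antisense 2 lay within the sense range and the other 3 antisense samples lay above it. The difference was -0.64 (SE 0.16, 95% interval -0.99 to -0.29, 1.55-fold lower in sense, limma adjusted p = 0.234), with -0.78 in Cy3 and -0.50 in Cy5, and the second HK2 feature gave -0.39. HK1, the housekeeping hexokinase, had a difference of 0.14 (SE 0.13) in its detected feature.

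Phosphofructokinase, the main control point of the pathway, is built from PFKL, PFKM and PFKP subunits. PFKM and PFKP differed by -0.13 and -0.02 log2. The 2 PFKL features had positive differences of 0.16 and 0.42, and both turned sign between dyes. PFKL feature 10859 read 29.65, 29.34, 30.31 and 29.60 in sense samples 1 to 4 and 29.16, 30.25, 28.48 and 29.33 in antisense samples 1 to 4. Antisense 2 stood above 3 of the sense samples while antisense 3 was the lowest of all 8. Its difference was 1.16 in Cy3 and -0.32 in Cy5 (limma adjusted p = 0.539 over both).

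In the middle of the pathway the differences of the brightest features lay within 0.20 log2 of 0. GPI, the isomerase that follows hexokinase, differed by -0.20 log2. The aldolases ALDOA and ALDOC, which split the hexose into trioses, differed by -0.02 and 0.06. TPI1, which interconverts those trioses, differed by -0.15. GAPDH, the dehydrogenase widely used as a reference transcript, was read by 10 features, and all 10 differences lay between 0.00 and 0.08 log2 with limma adjusted p-values of 0.831 to 0.991. Within dyes the brightest GAPDH feature read 0.36 in Cy3 and -0.23 in Cy5, so its near-zero value is a mean of opposite readings.

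PGK1, which makes the first ATP of the pathway, was negative in all 12 of its features, from -0.40 to -0.22 log2. The brightest one read 34.49, 34.41, 34.60 and 33.65 in sense samples 1 to 4 and 34.56, 34.63, 34.67 and 34.78 in antisense samples 1 to 4. The sense samples other than sense 4 overlapped the antisense range only at its lower end. The difference was -0.37 (SE 0.19, limma adjusted p = 0.383) with all samples and -0.16 without sense 4. Without that sample the other PGK1 features lay between -0.11 and 0.02, so the shared negative sign was lost. PGAM1, the mutase after it, had differences of -0.11 and -0.39 in its 2 features. In the dimmer one sense 1 to 3 read 27.59 to 27.63, sense 4 read 26.49 and the antisense samples averaged 27.73 ± 0.06 (SD, n = 4), so the separation of the constructs in that feature was narrow apart from sense 4 (limma adjusted p = 0.431).

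With all 8 samples the enolases had differences of opposite sign. ENO1, the ubiquitous form, differed by -0.18 log2 (SE 0.19) in its brightest feature, and by 0.02 without sense 4. Within dyes the ENO1 difference was 0.16 in Cy3 and -0.52 in Cy5. ENO2, the form typical of neurons, read 28.12, 29.11, 28.34 and 29.19 in sense samples 1 to 4 and 27.95, 28.30, 27.92 and 28.24 in antisense samples 1 to 4. The Cy5 samples of the sense construct were the 2 highest of all 8, and sense 1 lay below antisense 2 and 4, so the groups overlapped. The difference was 0.59 (SE 0.17, 95% interval 0.21 to 0.97, 1.5-fold higher in sense, limma adjusted p = 0.269). It was 0.29 in Cy3 and 0.88 in Cy5.

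PKM, the pyruvate kinase that ends the pathway, was read by 3 features, of which 2 were positive and the dimmest negative. The brightest read 33.43, 33.40, 34.02 and 32.74 in sense samples 1 to 4 and 33.03, 33.23, 32.88 and 33.18 in antisense samples 1 to 4. Sense 3 was the highest and sense 4 the lowest of all samples, and sense 1 and 2 lay above the whole antisense group. The difference was 0.31 (SE 0.22, limma adjusted p = 0.491) and 0.54 without sense 4, with 0.77 in Cy3 and -0.14 in Cy5. The third feature, 9906, differed by -0.34. The files do not say which PKM transcript each feature reads.

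**Figure D3:**
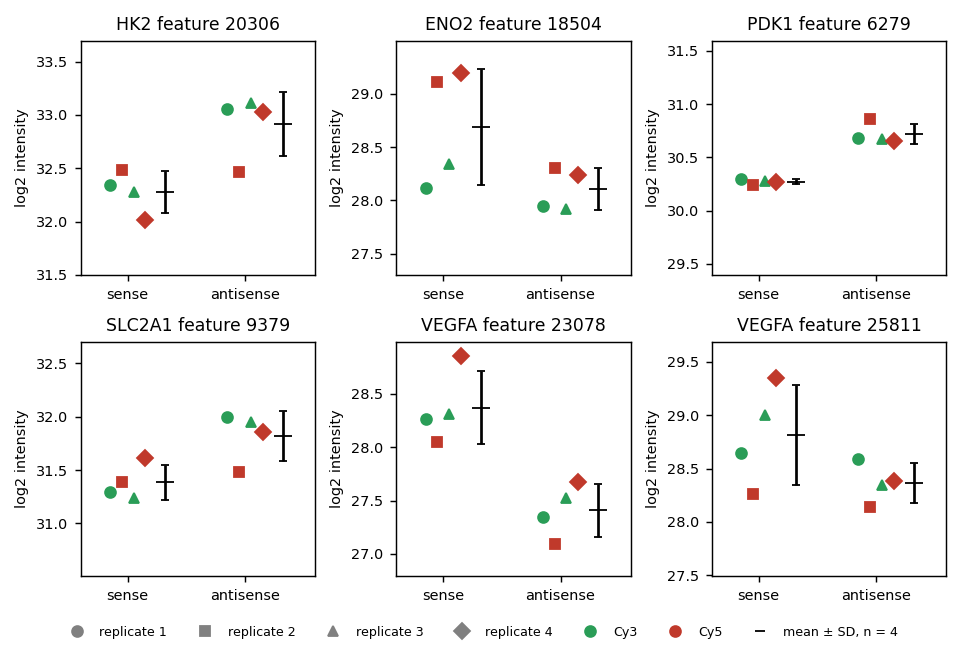
Log2 intensity (vertical axis, of the same height in every panel) of HK2, ENO2, PDK1, SLC2A1 and 2 VEGFA features in the sense and antisense samples, with symbols for replicates, colours for dyes and bars for mean ± SD (n = 4). The constructs are apart in PDK1 feature 6279 and VEGFA feature 23078, while antisense 2 joins the sense samples in HK2 and SLC2A1.

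Around the pathway's ends, 4 of the 5 branch point enzymes were negative, with a median of -0.27 log2, and none was called. PFKFB3 and PFKFB4 set the level of the fructose bisphosphate that activates phosphofructokinase. PFKFB3 read 31.05, 31.10, 31.06 and 31.08 in sense samples 1 to 4 and 30.88, 30.78, 30.92 and 31.09 in antisense samples 1 to 4. The sense samples were almost identical and antisense 4 lay among them, for a difference of 0.16 (SE 0.12, limma adjusted p = 0.511). PFKFB4 read 29.18, 28.95, 29.20 and 28.45 in sense samples 1 to 4 and 29.22, 28.65, 28.97 and 29.31 in antisense samples 1 to 4, with full overlap and a difference of -0.09 (SE 0.20).

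LDHA, which regenerates NAD by making lactate, read 35.15, 34.80, 35.33 and 33.61 in sense samples 1 to 4 and 35.08, 34.53, 35.16 and 35.46 in antisense samples 1 to 4. Sense 4 was far below the other 7 samples, which overlapped fully. The difference was -0.34 (SE 0.30, limma adjusted p = 0.577) with all samples and -0.01 without sense 4. All 3 LDHA features were negative, from -0.46 to -0.34. LDHB, the subunit that favours the reverse reaction, differed by -0.27 (SE 0.17), and by -0.14 without sense 4.

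PDK1, the kinase that shuts off pyruvate dehydrogenase and is induced by hypoxia, was apart between the constructs in both of its features. Feature 6279 read 30.30, 30.24, 30.28 and 30.26 in sense samples 1 to 4 and 30.68, 30.86, 30.67 and 30.65 in antisense samples 1 to 4. Every sense sample lay below every antisense sample, and the SD of the sense samples was 0.02. The difference was -0.45 (SE 0.12, 95% interval -0.70 to -0.19, 1.36-fold lower in sense), at a limma adjusted p = 0.246. It was -0.39 in Cy3, -0.50 in Cy5 and -0.44 without sense 4. The dimmer PDK1 feature read 27.49 ± 0.17 in sense and 27.75 ± 0.05 in antisense (SD, n = 4), with a difference of -0.26 and a limma adjusted p = 0.437.

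SLC2A1, the basal glucose carrier of the plasma membrane, was the only one of the 4 transporters among the members with values in all 8 samples. It read 31.30, 31.39, 31.24 and 31.62 in sense samples 1 to 4 and 31.995, 31.48, 31.95 and 31.86 in antisense samples 1 to 4. As in HK2, antisense 2 lay inside the sense range and the other antisense samples above it. The difference was -0.44 (SE 0.15, 95% interval -0.77 to -0.10, 1.35-fold lower in sense, limma adjusted p = 0.290), with -0.70 in Cy3 and -0.17 in Cy5.

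The constructs overlapped in the brightest features of all 3 oxygen sensing genes. HIF1A, the oxygen-regulated subunit of the hypoxia-inducible factor, read 30.24, 29.995, 30.33 and 29.80 in sense samples 1 to 4 and 30.31, 29.85, 30.54 and 30.17 in antisense samples 1 to 4 in its brightest feature. The groups overlapped over most of their range, and the difference was -0.13 (SE 0.13, 95% interval -0.42 to 0.17, limma adjusted p = 0.647). All 10 HIF1A features were slightly negative, from -0.21 to -0.07. HIF1A is controlled mainly through its protein, which the arrays do not read.

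EGLN1, the main prolyl hydroxylase that marks HIF1A, read 31.09, 31.002, 31.07 and 31.29 in sense samples 1 to 4 and 31.24, 30.95, 31.38 and 31.32 in antisense samples 1 to 4. Its brightest feature differed by -0.11 (SE 0.13) and its other feature by 0.08, with overlapping groups. EGLN3, a prolyl hydroxylase that hypoxia itself induces, read 28.42, 28.73, 27.41 and 25.998 in sense samples 1 to 4 and 27.67, 27.43, 27.46 and 27.42 in antisense samples 1 to 4. The SD was 1.23 among the sense samples and 0.12 among the antisense samples, which lay inside the sense range. The difference of 0.15 (SE 0.48, limma adjusted p = 0.899) averages 2 sense samples above the antisense range and 2 below it, and it was 0.73 without sense 4.

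The 8 other hypoxia-induced genes with values, from VEGFA to KDM3A, gave 3 positive and 5 negative differences with a median of -0.12 log2, and none was called. VEGFA, the growth factor that recruits blood vessels, was read by 13 features, of which 11 were positive, from -0.17 to 0.96. The brightest, 25811, read 28.64, 28.26, 29.01 and 29.35 in sense samples 1 to 4 and 28.59, 28.14, 28.34 and 28.39 in antisense samples 1 to 4, with sense 2 inside the antisense range. Its difference was 0.45 (SE 0.23, limma adjusted p = 0.389), and 0.21 without sense 4.

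VEGFA feature 23078 read 28.27, 28.05, 28.31 and 28.86 in sense samples 1 to 4 and 27.35, 27.09, 27.52 and 27.67 in antisense samples 1 to 4. All sense samples lay above all antisense samples. The difference was 0.96 (SE 0.22, 95% interval 0.48 to 1.45, 1.95-fold higher in sense, limma adjusted p = 0.215), with 0.85 in Cy3, 1.07 in Cy5 and 0.78 without sense 4. The 3 further features in which the constructs were apart, 35817, 36140 and 12314, differed by 0.51, 0.44 and 0.38. Without sense 4 these differences were 0.32, 0.26 and 0.19. VEGFA is spliced into several forms, and the files do not give the part of the gene that each feature reads.

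**Figure D4:**
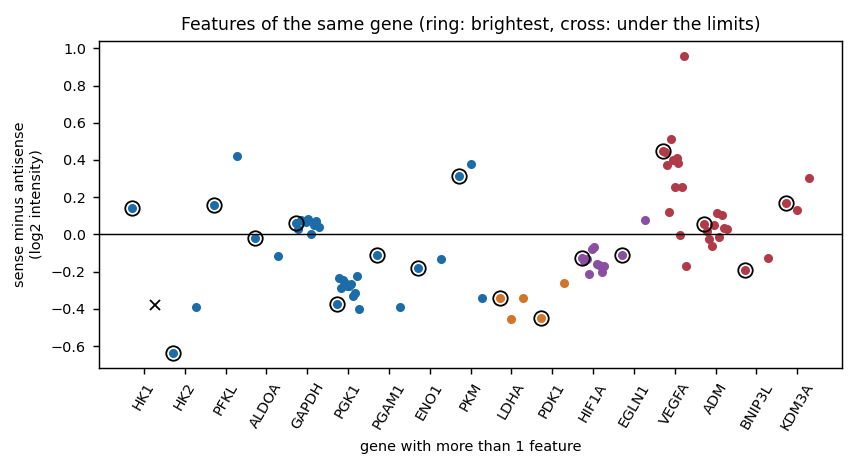
Sense minus antisense difference in log2 intensity (vertical axis) of every feature of the members that had more than 1 (horizontal axis), with a ring around the brightest and a cross for the HK1 feature below its limits. The 10 GAPDH features lie between 0.00 and 0.08 and the 12 PGK1 features between -0.40 and -0.22, whereas the 13 VEGFA features run from -0.17 to 0.96.

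KDM3A, a histone demethylase induced by hypoxia, was positive in all 3 of its features, from 0.13 to 0.30. The brightest read 30.12, 29.88, 30.41 and 30.29 in sense samples 1 to 4 and 30.05, 29.85, 30.05 and 30.09 in antisense samples 1 to 4, and overlapped through sense 2 (difference 0.17, SE 0.14). BNIP3 and BNIP3L, receptors that hand mitochondria to autophagy, differed by -0.26 (SE 0.18) and -0.19 (SE 0.11). BNIP3 read 32.79, 32.97, 32.64 and 32.37 in sense samples 1 to 4 and 33.01, 32.49, 33.16 and 33.13 in antisense samples 1 to 4, where antisense 2 again lay within the sense range. BNIP3L feature 16066 was apart, at 30.89 ± 0.03 in sense and 31.08 ± 0.15 in antisense (SD, n = 4), by a margin smaller than the spread of the antisense samples (limma adjusted p = 0.420).

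ANKRD37, an ankyrin repeat gene induced by hypoxia, read 28.52, 28.97, 28.03 and 28.29 in sense samples 1 to 4 and 28.76, 29.11, 28.67 and 28.51 in antisense samples 1 to 4. The groups overlapped and the difference was -0.31 (SE 0.21, limma adjusted p = 0.487). ADM, which encodes the vasodilator adrenomedullin, had 10 features with differences of -0.06 to 0.11. In its brightest feature antisense 2 read 31.18 against 32.42 to 32.74 in the other antisense samples, and the difference was -0.34 without that sample and 0.06 with it. NDRG1, a stress-induced growth regulator, and P4HA1, a subunit of the collagen prolyl hydroxylase, differed by -0.11 and -0.12.

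Within each sample the log2 ratio of isoenzymes or paralogues was compared between the constructs for 9 pairs, by an exact two-sided permutation test over samples whose smallest possible p is 0.0286. A ratio of 2 probes is not a ratio of transcripts, so only its difference between constructs is given. HK2 over HK1 read -0.07, 0.21, -0.25 and -0.02 in sense samples 1 to 4 and 1.00, 0.19, 0.96 and 0.83 in antisense samples 1 to 4. Antisense 2 lay under sense 2 and the other 3 antisense samples were well above. The difference was -0.78 log2 (exact permutation p = 0.0571, adjusted over the pairs 0.514), and -0.96 without antisense 2. Antisense 2 was the only antisense sample within the sense range. Without it the constructs were apart, and the exact permutation p (0.0286, unadjusted) was the smallest possible. That p follows from the choice of the sample left out and is no further support. ENO2 over ENO1 differed by 0.77 (exact p = 0.171, adjusted 0.770). The other 7 pairs gave exact permutation p-values of 0.286 to 0.857, and the constructs overlapped in all 9 pairs.

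Sense 4 read low for most glycolytic enzymes. It was the lowest of the 8 samples for 10 of 15 glycolytic enzymes (66.7%) and for 16 of all 32 members (50%). The same held for 26.4% of all features detected in both constructs, and for 48.8% of the 1241 among them with a mean log2 of at least 34. The median distance of sense 4 from the mean of sense 1 to 3 was -0.57 log2 over the glycolytic enzymes and -0.81 over the 7 of them with a mean of at least 34. Over all bright features it was -0.18 (10th to 90th percentile -0.88 to 0.53) and over all detected features -0.02. The 17 members other than glycolytic enzymes had a median of -0.01 (10th to 90th percentile -1.12 to 0.44). LDHA (-1.48) and PGAM1 (-1.06) were among the members farthest below, and EGLN3 (-2.19) was farther still. Low readings were thus not confined to glycolytic enzymes. In sense 4 the median deviation from each gene's mean over the 8 samples was -0.54 for branch points and -0.47 for glycolytic enzymes. It was -0.36 for oxygen sensing, 0.01 for SLC2A1 and 0.04 for the other hypoxia-induced genes.

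Without sense 4 the median difference of the glycolytic enzymes moved from -0.02 to 0.13, and 3 of 15 were negative where 9 had been. HK2, PFKM and PGK1 were those 3, at -0.57, -0.19 and -0.16 in their brightest features. The other PGK1 features then lay between -0.11 and 0.02. Limma then called 0 member features (background 0.0399%), and likewise 0 without antisense 2 (0.0359%). The members' mean log2 intensity was 32.10, 32.08, 32.12 and 31.74 in sense samples 1 to 4 and 32.09, 32.01, 32.08 and 32.15 in antisense samples 1 to 4. Whether brightness, the dye or the culture of sense 4 has a part in this was not tested.

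**Figure D5:**
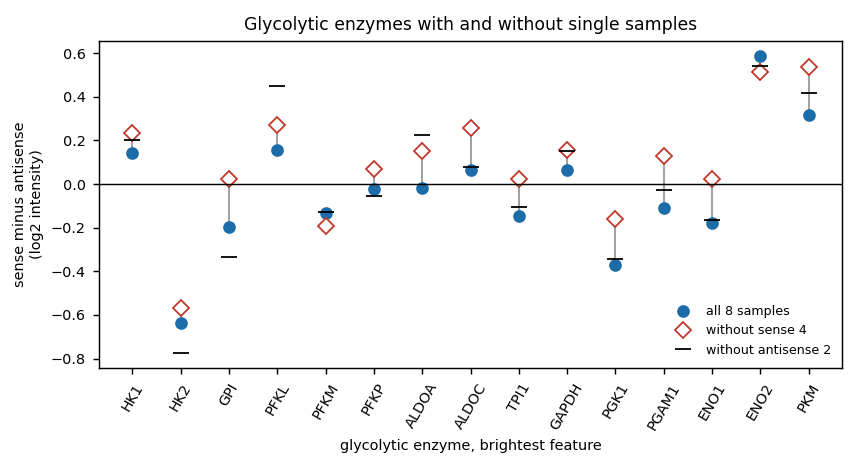
Sense minus antisense difference in log2 intensity (vertical axis) of the 15 glycolytic enzymes in pathway order (horizontal axis, brightest features) with all 8 samples (circles), without sense 4 (diamonds) and without antisense 2 (dashes). Leaving out sense 4 moves 13 of the 15 upward and leaves HK2, PFKM and PGK1 below 0.

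The submitters' stated design left out 1 sample per construct, the one without which the coefficient of variation was lowest. That rule, applied here, left out sense 4 and antisense 2 (mean coefficient 0.189 and 0.119 without them). The sample titles do not name the samples that the submitters left out. In the 3 against 3 samples that remain, the SAM statistic with all 20 label permutations called 1 member feature at the 5.4% rate and 1.4-fold. It was VEGFA feature 23078, higher in sense by 0.69 log2 (1.62-fold), against 1.81% of all features called and 1.6% called higher. At the 10.3% rate 6 member features were called (6.19%), against 6.18% of all features. Called higher were 4 features, against 4.40% of all: PFKL feature 10859 (0.78 log2), PKM features 33586 and 6623 (0.58 and 0.65) and VEGFA feature 23078. Called lower were HK2 feature 20306 (-0.70) and SLC2A1 (-0.63), against 1.77%.

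On the same 3 against 3 samples limma called HK2 feature 20306 (1.62-fold lower in sense, adjusted p = 0.0164) and SLC2A1 (1.54-fold lower, adjusted p = 0.0218). The background was 4.25% of all features, and 2.60% called lower, so 2 of 97 member features is not above it. In these samples every antisense value of both genes lay above every sense value. Antisense 2, the sample left out, read 0.60 log2 below the mean of the other antisense samples for HK2 and 0.46 below it for SLC2A1. With all 8 samples, and with antisense 2 alone left out (limma adjusted p = 0.096 and 0.14), neither was called.

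Beyond the members, none of the further genes of both pathways was called with all 8 samples. Of 50 further genes of glucose metabolism 40 had values in 59 features, and limma called 0, with 12 (20.3%) at an unadjusted p under 0.05 against 14.2% of all features. Of 61 further genes of the hypoxia response 54 had values in 147 features, and limma called 0, with 13 (8.84%) at an unadjusted p under 0.05. Per gene, by brightest feature, these shares were 22.5% for glucose metabolism and 16.7% for the hypoxia response, against 15% of all genes. The medians by brightest feature were -0.17 log2 for glucose metabolism and -0.03 for the hypoxia response.

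Among the glucose genes with the smallest p, ADPGK, a glucokinase that uses ADP, read 30.47, 30.25, 30.38 and 30.10 in sense samples 1 to 4 and 29.82, 29.95, 29.73 and 29.72 in antisense samples 1 to 4. All sense samples lay above all antisense samples (difference 0.49, SE 0.13, limma adjusted p = 0.256). PDK3, a relative of PDK1, differed by 0.52, opposite in sign to PDK1, with overlapping groups. On the negative side stood single features of SLC2A8, an intracellular glucose carrier (-0.47), DLD, a subunit of pyruvate dehydrogenase (-0.37), and TALDO1 and RPE of the pentose phosphate pathway (-0.38 and -0.41), in which the constructs were apart. Other features of these genes were smaller: 2 of SLC2A8 (-0.17 and -0.12), 2 of the 4 of TALDO1 (-0.14 and -0.11) and the brightest of RPE (-0.34) overlapped. The other detected PDK3 feature differed by 0.07.

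Among the hypoxia genes, CITED2, which limits hypoxia-inducible factor by competing for its coactivator, read 30.98, 30.52, 31.09 and 30.79 in sense samples 1 to 4 and 30.04, 30.40, 29.91 and 30.06 in antisense samples 1 to 4. The constructs were apart, by the narrow step between sense 2 and antisense 2 (difference 0.74, SE 0.16, limma adjusted p = 0.215). BHLHE40, RORA and DDIT4 differed by 0.76, 0.74 and 0.32. ZNF395, HILPDA, STC2 and LOX differed by -0.59, -0.62, -0.65 and -0.58 in the feature of each with the smallest p. The constructs overlapped in the named features of HILPDA, STC2 and LOX, and in those of BHLHE40 and DDIT4. The other features of ZNF395 lay between -0.31 and -0.12, that of STC2 had the opposite sign (0.07), and those of LOX lay between -0.67 and -0.31. The second RORA feature differed by 0.37. The limma adjusted p-values of these 8 genes were 0.215 to 0.293 in these features. In the 3 against 3 samples limma called ADPGK (0.61 log2), CITED2 (0.86) and ZNF395 (-0.77) in these lists.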

How the data were processed

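Labelled RNA of 8 HEK293 samples, 4 per construct, was hybridised to Agilent oligonucleotide arrays. The deposited values are linear intensity values. Scans were quantified with Agilent Feature Extraction 9.5, per the submitters' processing notes. Per the design text, features had to exceed the negative controls' mean by 3 SD in all or none of a construct's samples, and intensities were scaled by a 40% trimmed mean. The absolute scale is unknown, and any correction for background or dye is not given in the sources used here. Columns were therefore used unchanged, as log2 or in intensity units of 1000000. Their trimmed means, taking 20% from each end, lay within 2.02%. Of 45015 features, 25094 had values in all samples and 19921 lacked a value in at least 1. The number of arrays limits the precision.

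Each sample's detection limit was inferred as the value that leaves the fewest features detected in only some samples of a construct, and lay between 25 and 48 intensity units for the sense and between 47 and 72.3 for the antisense construct. Gene names came from the platform annotation. Features of a gene were kept apart, and the files do not say which of them repeat a probe.

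Log2 values were compared in R 4.3.3 with limma 3.58.1, using lmFit on construct plus dye, eBayes with its mean-variance trend and Benjamini-Hochberg adjustment over all 25094 features. SAM was rewritten with all 20 label permutations of the stated 3 against 3 samples. Nothing was imputed. Isoenzyme ratios were compared by exact permutation over samples. The scripts were tested on simulated data. Alternatives were normalization, dye, variance moderation, detection, the representative feature, a replicate block, a possible shared array and leaving out each sample. Samples 1 and 2, and samples 3 and 4, of each construct carried opposite dyes. Their median intensities were 579 and 579, then 590 and 590 units in sense, and 571 and 571, then 548 and 549 in antisense. They may share arrays, which the labels do not say, and the main fit treats all samples as independent.

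Members and lists were chosen with earlier results of these data known. The naming rule gives per-sample values for members with a feature called by limma or SAM or at an unadjusted p under 0.05, for HIF1A, and for the 2 highest and 2 lowest members of each group. From each further list it names at most 4 features per direction, those with the smallest p. PFKL and PKM features were named through their SAM calls. Replicate numbers were not used to pair the samples, since the labels do not give a pairing.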

Additional observations from a re-analysis of the deposited data

Results flagged for a closer look

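Of 108 groups of 4 samples examined (each named feature, list mean and isoenzyme ratio in each construct), 9 (8.33%) held a sample whose gap to the nearest of the others was above Dixon's 95% critical value, as a share of the group's range. Chance alone would flag about 1 in 20. Sense 4 accounted for 3 of the 9 and antisense 2 for 4. The rule of the stated design, applied here, left out the same samples, but both rules pick deviating samples from the same values. All values are log2.

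Sense 4 was low in the mean of the member list, at 31.74 against 32.08 to 32.12 in the other sense samples. It was low in PGAM1 feature 38373, at 26.49 against 27.59 to 27.63. In the ratio of LDHB to LDHA it was high, at 2.07 against 1.41 to 1.49. Antisense 2 was low in HK2 feature 20306, at 32.47 against 33.02 to 33.11, and in KDM3A feature 28114, at 29.85 against 30.05 to 30.09. It was high in PDK1 feature 6279, at 30.86 against 30.65 to 30.68, and in the ratio of ENO2 to ENO1, at -6.99 against -7.39 to -7.32. Antisense 1 was high in EGLN3, at 27.67 against 27.42 to 27.46. Antisense 4 was low in the ratio of LDHB to LDHA, at 1.08 against 1.68 to 1.73. The cause of these readings was not tested.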

How the results depend on the processing

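With all 8 samples the limma count of member features stayed at 0 under every planned setting except the Cy3 samples alone (13 of 97) and the 3 against 3 samples of the stated design (2). Under the same 2 settings 9 and 1 of 59 features of the further glucose genes and 24 and 2 of 147 of the further hypoxia genes were called. Of all features, 11.5% and 4.25% were called there. Leaving out each sample gave 0 for all 3 lists. With replicate number as a replicate block, 0 member features were called. The numbers were not taken as pairs, because the labels do not say that a number marks a shared day or thaw. The deviations of same-numbered samples correlated at 0.226, 0.0893, 0.220 and -0.0598, which does not settle whether they are paired. The median difference of the member list was 0.0352 in the Cy3 samples, and -0.14 to 0.0237 as each sample was left out, positive only without sense 4. The 1 SAM call became 6 at the 10.3% rate, 3 after quantile normalization, 2 with limma on the same samples, and 0 to 12 as a further sample was left out (12 without sense 2, 0 without sense 1 or antisense 1, 3 or 4). Leaving out sense 4 and antisense 2 was not run there, since the stated rule, applied here, already does. The pairs SLC2A3 with SLC2A1 and SLC16A3 with SLC16A1 could not be computed. The ratio of HK2 to HK1 differed by -0.78 with all samples and by -0.96 to -0.70 as samples were left out. It reached the smallest possible exact permutation p without antisense 2. That sample was the only antisense sample within the sense range, so this p is no further support.

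Of the single-feature differences, all under the threshold with 8 samples, these changed sign. In the Cy3 samples they were ALDOA (0.32), TPI1 (0.25), PGAM1 (0.30), ENO1 (0.16), PFKFB4 (0.095), LDHA (0.12) and ADM (-0.42), and the ratios of ALDOC to ALDOA (-0.0365) and LDHB to LDHA (-0.23). In the Cy5 samples they were HK1 (-0.0793), PFKL (-0.23 and -0.32), ALDOC (-0.15), GAPDH (-0.23), PKM (-0.14 and -0.097), EGLN1 (0.0138) and EGLN3 (-0.064), and the ratios of PFKP and PFKM to PFKL (0.21 and 0.097), BNIP3L to BNIP3 (-0.19) and EGLN3 to EGLN1 (-0.0777). In the 3 against 3 samples they were PFKP (0.0299), ALDOA (0.32), TPI1 (0.0302), PGAM1 (0.16) and ADM (-0.28), and the ratios of ALDOC to ALDOA (-0.0881) and LDHB to LDHA (-0.0436). After quantile normalization they were PFKP (0.097), ALDOA (0.12), ALDOC (-0.0181) and PGAM1 (0.0166), and the ratios of ALDOC to ALDOA (-0.14) and BNIP3L to BNIP3 (-0.0161).

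As each sample was left out, the ranges that crossed 0 were -0.39 to 0.0225 for GPI, -0.0406 to 0.45 for PFKL, -0.12 to 0.0698 for PFKP, -0.15 to 0.22 for ALDOA, -0.10 to 0.26 for ALDOC, -0.29 to 0.025 for TPI1 and -0.0691 to 0.16 for GAPDH. They were also -0.23 to 0.13 for PGAM1, -0.28 to 0.0208 for ENO1, -0.19 to 0.0756 for PFKFB4, -0.36 to 0.73 for EGLN3, -0.34 to 0.27 for ADM and -0.26 to 0.0532 for NDRG1. The ratios ranged from -0.0912 to 0.27 (ALDOC to ALDOA), -0.0916 to 0.13 (LDHB to LDHA), -0.0517 to 0.28 (BNIP3L to BNIP3) and -0.15 to 0.86 (EGLN3 to EGLN1). HK2, PDK1, SLC2A1, ENO2 and VEGFA feature 23078 changed sign under no setting run. They were named for their small p in these same samples, so a stable sign is no independent result. The brightest features of PFKM, PGK1, PFKFB3, LDHB, HIF1A, BNIP3, BNIP3L, P4HA1, ANKRD37, KDM3A and VEGFA also kept their sign throughout. The cause of the sign changes was not tested. Dim features limit what could be seen, and 1 HK1 feature lay under its limits in every sample.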
